A study of Homo sapiens with 16 samples.

Results

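The 9 genes described here encode transcription factors of the myeloid lineage: the C/EBP family members CEBPA, CEBPB, CEBPD, CEBPE and CEBPG, SPI1 (which encodes PU.1), IRF8, GFI1 and RUNX1. They were chosen by symbol, and all 9 were found among the 34618 genes of the count table. RNA was sequenced from 2 human acute myeloid leukaemia cell lines, the immature line KG1A, which carries CD34, and the promonocytic U937. Each line received NEL at 10 µM or the vehicle DMSO, with 4 libraries for each of the 4 groups and 16 in all. The medium of all 4 groups was RPMI, supplemented with dialyzed serum. The labels do not spell out NEL or give a time of treatment; it is read here as nelarabine, an analogue of a purine nucleoside, because the published study used that drug. The series is titled after ribonucleotide reductase and blocked differentiation, so the comparisons ask how the factors that drive myeloid differentiation differed between NEL and vehicle in each line, and between the lines. A cell line stands for 1 leukaemia, and the labels do not say whether the replicates of a group are separate cultures, so p-values measure only the spread between these libraries.

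These factors act in sequence and on each other. RUNX1, which binds DNA with its partner CBFβ, is needed to form blood stem cells and opens the myeloid programme. PU.1, an ETS factor, commits progenitors to the myeloid and B lymphoid lineages, and at high levels favours macrophages. C/EBPα takes progenitors to the granulocyte and monocyte stage and slows their division, C/EBPβ supports emergency granulopoiesis and macrophage genes, C/EBPε acts late in granulocytes, C/EBPδ is induced by cytokines, and C/EBPγ lacks a strong activation domain and pairs with other bZIP proteins. IRF8 directs cells to monocytes and dendritic cells, and GFI1 is a zinc finger repressor that favours granulocytes over monocytes. Several of the genes are altered in acute myeloid leukaemia.

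Depth differed little between libraries. Total counts ran from 10641567 to 11777684, so a gene with no count in a library may still have reached 0.255 to 0.282 CPM (3 counts scaled to a common library total), counting error alone considered. The CPM values of genes below are scaled with TMM factors as well. Mitochondrial genes held 5.89% to 10.4% of the counts. In each group, libraries 1 and 3 were close to each other, as were 2 and 4: a chi-square per degree of freedom of 1.28 to 2.19 within these sets set against 4.53 to 10.3 between them. A value from 1 set alone is printed where it changes the call of a factor, and for EPOR and VDR among the other genes. Summed marker levels went with the named lines. The summed CPM of CD34, PROM1, KIT, FLT3 and CD7 was 889 to 1103 in KG1A and 0.708 to 2.89 in U937. That of CD33, CD4, LYZ, FCGR1A, CD68, MPO, ELANE, AZU1 and CTSG was 1.51 to 5.23 in KG1A and 2009 to 2309 in U937. This second sum rested largely on few genes: in U937 with DMSO, CTSG was at 1255 ± 21.9 CPM, ELANE at 413 ± 29.7 and AZU1 at 250 ± 14.3. MPO and CD68 were under 1 CPM in every group mean of both lines, and FCGR1A was at 3.31 ± 1.04 CPM in U937 with DMSO. Of the 5 immature markers, 1 was under 1 CPM in KG1A. In bulk RNA, fewer cells that express a gene and less of its RNA per cell cannot be told apart.

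Promoter sequence was available for 7 of the 9 genes, in 12 windows of 300 bases from RefSeq on GRCh38.p14, 250 before and 50 after a start site. The 250 bases before the start are shown for the 3 genes with the largest NEL effects in U937, so that their letters stand beside the values that follow: GFI1 at its second listed start, chr1:92486100-92486349, minus strand, CEBPA at chr19:33302535-33302784, minus strand, and CEBPB at its first listed start, chr20:50190333-50190582, plus strand. Capitals mark matches to the cores searched on both strands.
GFI1: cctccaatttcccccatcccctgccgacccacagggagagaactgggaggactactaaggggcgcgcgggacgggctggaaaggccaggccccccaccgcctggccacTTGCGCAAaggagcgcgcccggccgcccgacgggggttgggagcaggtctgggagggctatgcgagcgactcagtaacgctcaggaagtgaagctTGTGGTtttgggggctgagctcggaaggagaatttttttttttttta
CEBPA: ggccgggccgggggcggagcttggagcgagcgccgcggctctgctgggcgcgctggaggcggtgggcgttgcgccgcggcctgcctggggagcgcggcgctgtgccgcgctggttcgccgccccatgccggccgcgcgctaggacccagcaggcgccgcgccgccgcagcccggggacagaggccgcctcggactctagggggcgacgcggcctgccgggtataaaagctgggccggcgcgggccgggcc
CEBPB: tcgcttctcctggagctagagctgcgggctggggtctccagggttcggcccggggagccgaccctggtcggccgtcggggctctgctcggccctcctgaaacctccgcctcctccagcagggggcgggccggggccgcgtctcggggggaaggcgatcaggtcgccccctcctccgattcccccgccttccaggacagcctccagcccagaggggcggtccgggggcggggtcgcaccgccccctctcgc
The cores were TGTGGT for RUNX, GAGGAA for PU.1, AATCA for GFI1, TTGC with any 2 bases and then AA for C/EBP, and GAAA with any 2 bases and then GAAA for IRF; no core contains another. Among all 35116 windows of the table, 13.1% held the RUNX core, 27.9% the PU.1 core, 34.5% the GFI1 core, 10.5% the C/EBP core and 3.57% the IRF core. The GFI1 window held TTGCGCAA, which reads the same on both strands, with its first base at position -142 from the start site, and TGTGGT at -47. Of the 3 GFI1 windows only the second, the one shown, held the RUNX and C/EBP cores, and the first held no match. The CEBPA and CEBPB windows shown held no match, which says only that these letters are not in these windows. Of the windows not shown, the first of IRF8 held TGTGGT at -134 and the GFI1 core on the opposite strand at -182, that of CEBPE held GAGGAA at -41, the third of GFI1 held GAGGAA at -30 and the GFI1 core on the opposite strand at -89, and that of RUNX1 held the PU.1 core at -44 and the GFI1 core at -91, both on the opposite strand. A match describes letters and not binding.

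Without NEL, the 6 factors that passed the filter on low counts in both lines differed between them: SPI1, CEBPA, GFI1, CEBPB and CEBPG were higher in U937, and RUNX1 was higher in KG1A. Of all 15181 genes tested between the DMSO libraries, 86.4% were called (43% higher and 43.4% lower in U937; edgeR quasi-likelihood test, Benjamini-Hochberg adjusted p under 0.05), so being called is not a result about these genes, and their sizes are given instead. Line and culture cannot be told apart in this comparison. IRF8 and CEBPE passed the filter only through U937, which fixed their direction, so they are described by their counts and not by their test.

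The widest gaps were in IRF8, CEBPE and SPI1. IRF8 (ENSG00000140968, hg19 chr16:85932409-85956215, plus strand) had 1, 1, 1 and 0 counts in the 4 KG1A libraries with DMSO and 239, 247, 244 and 260 CPM in U937, so the KG1A libraries were near 0 and the U937 libraries close together. Its 11126 counts over the U937 group against 3 in KG1A gave a ratio of 3553 (95% exact counting interval 1216 to 17233). CEBPE (ENSG00000092067, chr14:23586513-23588825, minus strand) had 0 counts in all 8 KG1A libraries, which allows up to 0.0696 CPM over the DMSO group, and 28.9, 27.4, 24.7 and 24.9 CPM in U937 with DMSO. It was at least 380-fold higher in U937, computed against 3 counts over the KG1A group. SPI1 (ENSG00000066336, chr11:47376411-47400127, minus strand) was low but present in KG1A with DMSO, at 2.46, 2.59, 2.79 and 2.37 CPM from 26 to 30 counts a library. In U937 with DMSO it stood at 154, 132, 151 and 120 CPM, and the log2 difference was 5.68 ± 0.12 (SE), or 51.2-fold (adjusted p = 3.88e-17). In U937, the SPI1 libraries 1 and 3 lay above 2 and 4.

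CEBPA (ENSG00000245848, chr19:33790840-33793470, minus strand) was at 20.7 ± 0.718 CPM in KG1A (SD, n = 4) and 428 ± 28.3 in U937, 19.5-fold higher (log2 4.29 ± 0.06, adjusted p = 5.62e-19). GFI1 (ENSG00000162676, chr1:92940319-92952433, minus strand) was at 57.8 ± 1.27 and 417 ± 8.33 CPM, 6.81-fold higher in U937 (2.77 ± 0.04, adjusted p = 1.08e-18). The gaps of the other C/EBP genes were smaller. CEBPB (ENSG00000172216, chr20:48807376-48809212, plus strand) was 2.40-fold higher in U937 (1.27 ± 0.08, adjusted p = 1.06e-10), and CEBPG (ENSG00000153879, chr19:33864236-33873592, plus strand), which neighbours CEBPA, was 1.61-fold higher (0.69 ± 0.05, adjusted p = 1.29e-09). RUNX1 (ENSG00000159216, chr21:36160098-37376965, minus strand) went the other way, with 365, 336, 343 and 328 CPM in KG1A and 92.4, 87.3, 92.1 and 88.3 in U937, 4.03-fold lower in U937 (log2 -2.01 ± 0.05, adjusted p = 1.49e-16). CEBPD (ENSG00000221869, chr8:48649471-48651648, minus strand) was near 0 throughout: KG1A libraries held 1, 2, 1 and 1 counts under DMSO and 0, 3, 2 and 6 under NEL, and U937 libraries held 1, 0, 0 and 1, then 0, 0, 1 and 0. It was tested in no comparison.

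**Figure D1:**
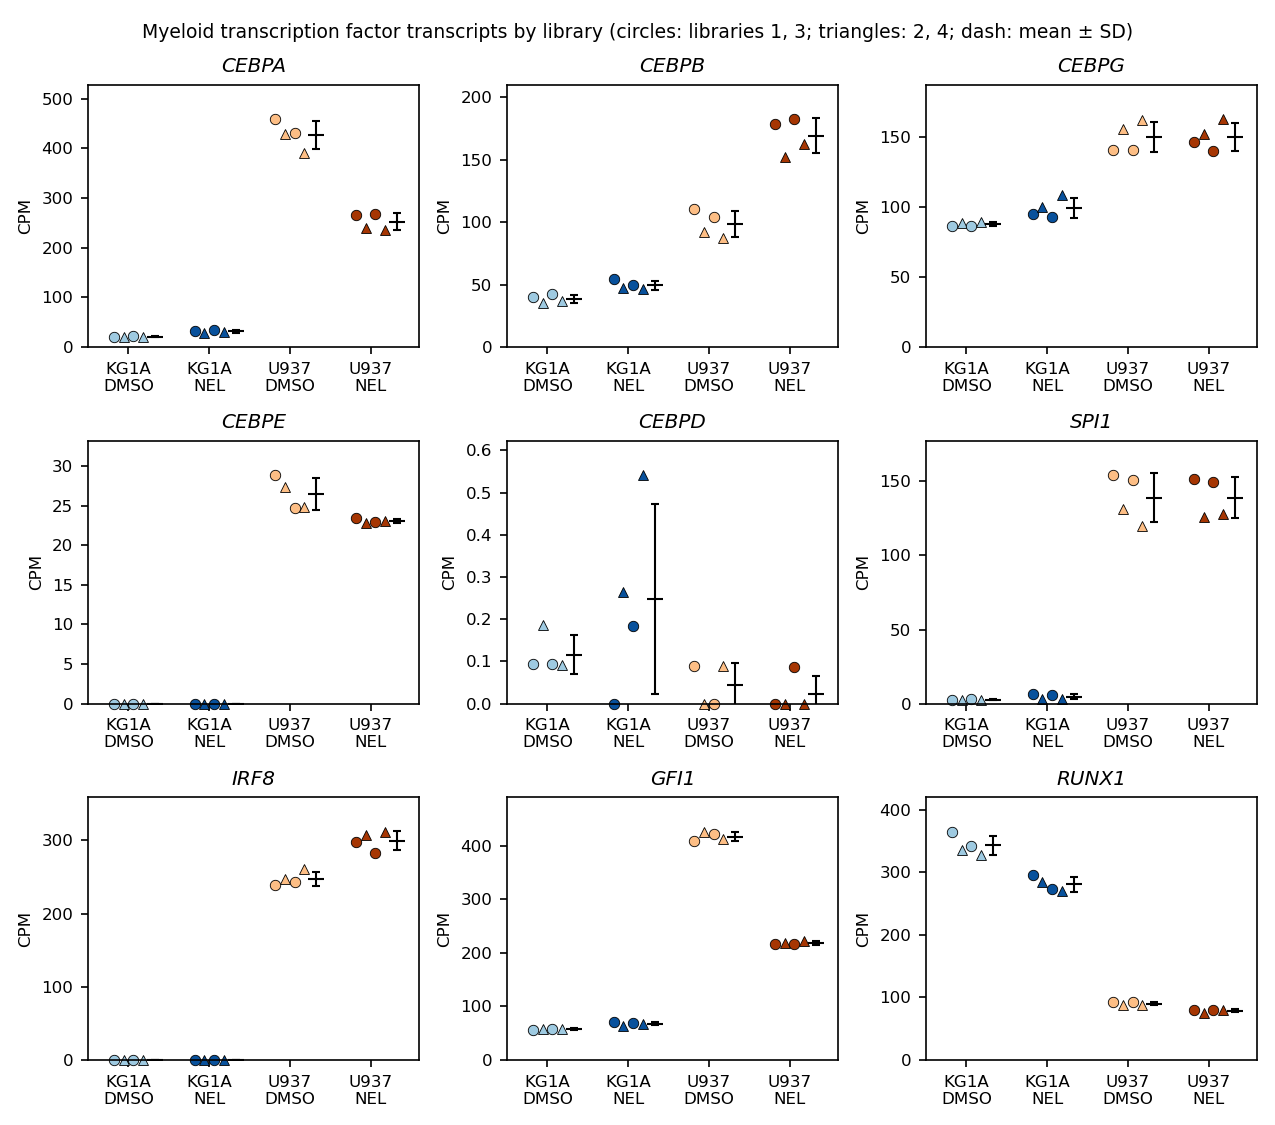
CPM of the 9 genes in every library (y axis, from 0, a separate scale for each gene) by line and treatment (x axis), with circles for libraries 1 and 3, triangles for 2 and 4, and a dash with bars for the mean ± SD of 4 libraries; bars that would reach below 0 end at 0. CEBPA and GFI1 fall from DMSO to NEL in U937 with no overlap, CEBPB rises, CEBPE is at 0 in KG1A, and CEBPD stays under 1 CPM everywhere.

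Ranked per length by the authors' RPKM values, the lines had different leading factors. In KG1A with DMSO, RUNX1 (21.6 ± 0.819 RPKM), CEBPB (20.7 ± 1.71) and CEBPG (19.6 ± 0.416) led, with GFI1 at 17.2 ± 0.488, CEBPA at 7.71 ± 0.234 and SPI1 at 1.21 ± 0.0867. The libraries of RUNX1 and CEBPB overlapped, as did those of CEBPB and CEBPG. In U937 with DMSO, CEBPA led at 157 ± 11.1 RPKM, followed by GFI1 at 122 ± 2.64, SPI1 at 64.9 ± 7.72, CEBPB at 51.8 ± 5.70 and IRF8 at 46.2 ± 1.55, with CEBPG at 32.9 ± 2.38, CEBPE at 16.5 ± 1.38 and RUNX1 at 5.58 ± 0.160. There CEBPA lay above GFI1 in every library, while SPI1 overlapped with CEBPB and CEBPB with IRF8. RPKM depends on the exon length in the table, and that of RUNX1, 15574 bases, is the longest of the 9.

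In KG1A the transcripts of 5 factors were higher with NEL and that of RUNX1 was lower, and the largest changes were in SPI1 and CEBPA. Of 14250 genes tested in KG1A, 47.2% were called (23.6% higher, 23.6% lower), and all 6 of the factors that passed the filter were called, 5 higher and 1 lower. The median log2 fold change of the 6 was 0.29, and that of all genes tested -0.004. In each of the 6 the DMSO and NEL libraries did not overlap. The share of all genes tested without overlap was not computed, so nothing is read from that count. CEBPD, CEBPE and IRF8 did not pass the filter in this line.

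CEBPA, the gene of C/EBPα, rose in KG1A from 21.2, 20.2, 21.4 and 19.9 CPM to 33.3, 28.9, 33.4 and 29.6. Every NEL library lay above every DMSO library, and the rise was 1.51-fold (log2 0.59 ± 0.07, adjusted p = 8.05e-06). A larger change in size was seen in 11.8% of all genes tested in this line. That share was 5.52% for SPI1, 28.1% for CEBPB, 35% for RUNX1, 46.4% for GFI1 and 56.8% for CEBPG. SPI1 rose 1.78-fold (0.83 ± 0.24, adjusted p = 0.0107), from 2.46, 2.59, 2.79 and 2.37 CPM to 6.58, 3.08, 5.42 and 3.25, on 35 to 73 counts a library. Its NEL libraries split, with 1 and 3 high and 2 and 4 just above the DMSO libraries. Within libraries 1 and 3 alone the log2 fold change was 1.19 (adjusted p = 2.57e-06), and within 2 and 4 alone it was 0.34 and did not pass (adjusted p = 0.335).

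CEBPB rose in KG1A from 40.2, 35.0, 42.5 and 37.2 CPM to 54.6, 47.2, 50.01 and 46.2, or 1.27-fold (0.35 ± 0.07, adjusted p = 8.25e-04). GFI1 rose from 57.8 ± 1.27 to 67.7 ± 2.77 CPM (0.22 ± 0.05, adjusted p = 0.00119). CEBPG rose from 88.0 ± 1.26 to 99.5 ± 6.98 CPM (0.17 ± 0.05, adjusted p = 0.00982), with libraries 2 and 4 the highest under NEL. In libraries 1 and 3 alone its change was 0.11 and did not pass (adjusted p = 0.0713). RUNX1 fell from 365, 336, 343 and 328 CPM to 295, 285, 273 and 270, by 0.29 ± 0.04 on the log2 scale (adjusted p = 5.50e-05). The order per length changed with it: with NEL the RPKM of CEBPB (27.6 ± 1.85), CEBPG (23.1 ± 1.79) and GFI1 (21.0 ± 0.731) stood above that of RUNX1 (18.5 ± 0.651), which overlapped with none of them.

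In U937 the factors moved in both directions with NEL: GFI1 and CEBPA fell, CEBPB and IRF8 rose, CEBPE and RUNX1 fell slightly, and SPI1 and CEBPG did not pass the test. Of 14390 genes tested in U937, 69.3% were called (34.6% higher, 34.7% lower), and 6 of the 8 factors tested were called, 2 higher and 4 lower, a share near that background and so not a result about these genes as a group. Their median log2 fold change was -0.09, and that of all genes tested -0.004. The sizes and directions of single factors follow.

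GFI1, whose upstream bases are printed above, had the largest change of the 8 factors tested in U937. It stood at 408, 426, 422 and 412 CPM with DMSO and 216, 219, 216 and 223 with NEL, 2 tight groups far apart, and was 1.90-fold lower (log2 -0.93 ± 0.04, adjusted p = 7.25e-11). A larger change in size was seen in 14.3% of genes tested in U937 for GFI1, 19.8% for CEBPB and 21.1% for CEBPA. For IRF8, RUNX1 and CEBPE that share was 61.2%, 72.2% and 72.4%. CEBPA fell from 460, 429, 432 and 391 CPM to 266, 240, 267 and 237, with no overlap, and was 1.69-fold lower (-0.76 ± 0.06, adjusted p = 4.27e-08). CEBPB rose from 111, 92.5, 104 and 87.2 CPM to 179, 152, 183 and 163, or 1.72-fold (0.78 ± 0.07, adjusted p = 4.65e-07), and its NEL libraries all lay above its DMSO libraries. In both C/EBP genes libraries 1 and 3 tended to be higher than 2 and 4 of the same group, and the change within each set was close to the whole: -0.74 and -0.77 for CEBPA, 0.75 and 0.82 for CEBPB.

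The monocytic factor IRF8 rose from 239, 247, 244 and 260 CPM to 298, 307, 282 and 312 (0.28 ± 0.04, 1.21-fold, adjusted p = 5.66e-05). The late granulocytic factor CEBPE went from 28.9, 27.4, 24.7 and 24.9 CPM to 23.4, 22.9, 23.0 and 23.1, a fall of 0.19 ± 0.07 on the log2 scale with a narrow gap between the groups (-0.19, adjusted p = 0.0215). That call was lost without DMSO library 1 (-0.16, adjusted p = 0.0629), without DMSO library 2 (-0.18, adjusted p = 0.0512) and in libraries 2 and 4 alone (-0.18, adjusted p = 0.0903). RUNX1 fell from 92.4, 87.3, 92.1 and 88.3 CPM to 79.8, 75.1, 79.3 and 79.7 (-0.19 ± 0.04, adjusted p = 0.00105). SPI1 was at 154, 132, 151 and 120 CPM with DMSO and 152, 126, 150 and 128 with NEL, and the groups overlapped (0.00 ± 0.08, adjusted p = 0.968). CEBPG, at 150 ± 10.9 and 151 ± 9.89 CPM, overlapped as well (0.01 ± 0.06, adjusted p = 0.918). Per length, CEBPA (98.9 ± 6.10 RPKM) and CEBPB (94.9 ± 7.65) led with NEL and overlapped, as did SPI1 (69.3 ± 6.51) and GFI1 (68.2 ± 1.34), followed by IRF8 at 59.8 ± 2.79.

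**Figure D2:**
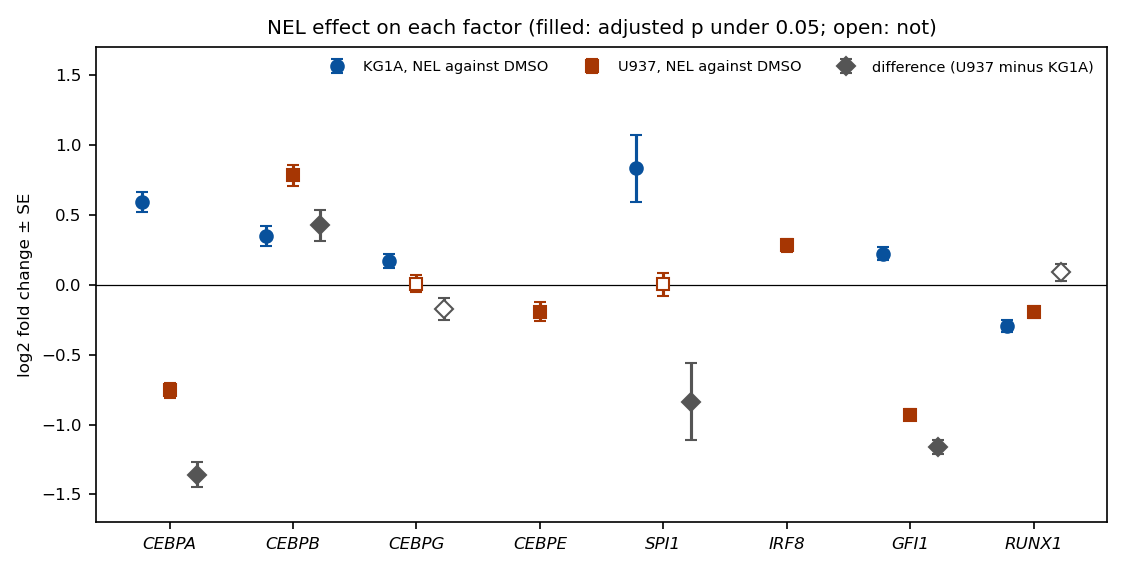
Log2 fold change of NEL against DMSO ± SE (y axis) for 8 of the factors (x axis) in KG1A (circles) and U937 (squares), with the difference of the effects, U937 minus KG1A (diamonds); filled symbols have an adjusted p under 0.05. CEBPA and GFI1 lie above 0 in KG1A and below 0 in U937, and CEBPB lies above 0 in both; IRF8 and CEBPE have no KG1A value.

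The NEL effects were then set against each other in a model of all 16 libraries. Of 16117 genes, 47.4% differed in their effect (21.1% higher and 26.3% lower in U937), and so did 4 of the 6 factors that passed the filter in both lines, 1 higher and 3 lower. With so few genes, nothing is read from that share. CEBPA had the largest difference among the factors called, rising in KG1A and falling in U937 (-1.36 ± 0.09, adjusted p = 8.46e-11). GFI1 also rose in KG1A and fell in U937 (-1.16 ± 0.05, adjusted p = 1.64e-13). CEBPB rose in both lines and more in U937 (0.42 ± 0.11, adjusted p = 0.00319). For SPI1 the difference was -0.84 ± 0.28 (adjusted p = 0.0155), and it rested on KG1A libraries 1 and 3: without NEL library 1 it was -0.61 (adjusted p = 0.0736), and in libraries 2 and 4 alone -0.32 (adjusted p = 0.352).

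RUNX1 fell in both lines and the difference of 0.09 ± 0.06 did not pass (adjusted p = 0.242). CEBPG differed by -0.17 ± 0.08 and did not pass (adjusted p = 0.0811), but passed with the replicate number as a block (-0.17, adjusted p = 0.000996) and with a covariate for the library sets (-0.17, adjusted p = 0.00128). It also passed with libraries 1 and 2, and 3 and 4, summed (-0.19, adjusted p = 0.00195). Each of those sums mixes the odd and even sets and so evens out the spread between them. Sums within a set were not run. The sets differed: it was -0.24 in libraries 2 and 4 alone (adjusted p = 0.00188) and -0.096 in 1 and 3 alone, where it did not pass (adjusted p = 0.290). It also passed without KG1A NEL library 3 (-0.21, adjusted p = 0.0441), U937 DMSO library 1 (-0.20, adjusted p = 0.0455) or 3 (-0.21, adjusted p = 0.0452), or U937 NEL library 4 (-0.21, adjusted p = 0.0300). For IRF8 and CEBPE, with 0 or 1 count in each KG1A library, the difference has no meaning and is not given.

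**Figure D3:**
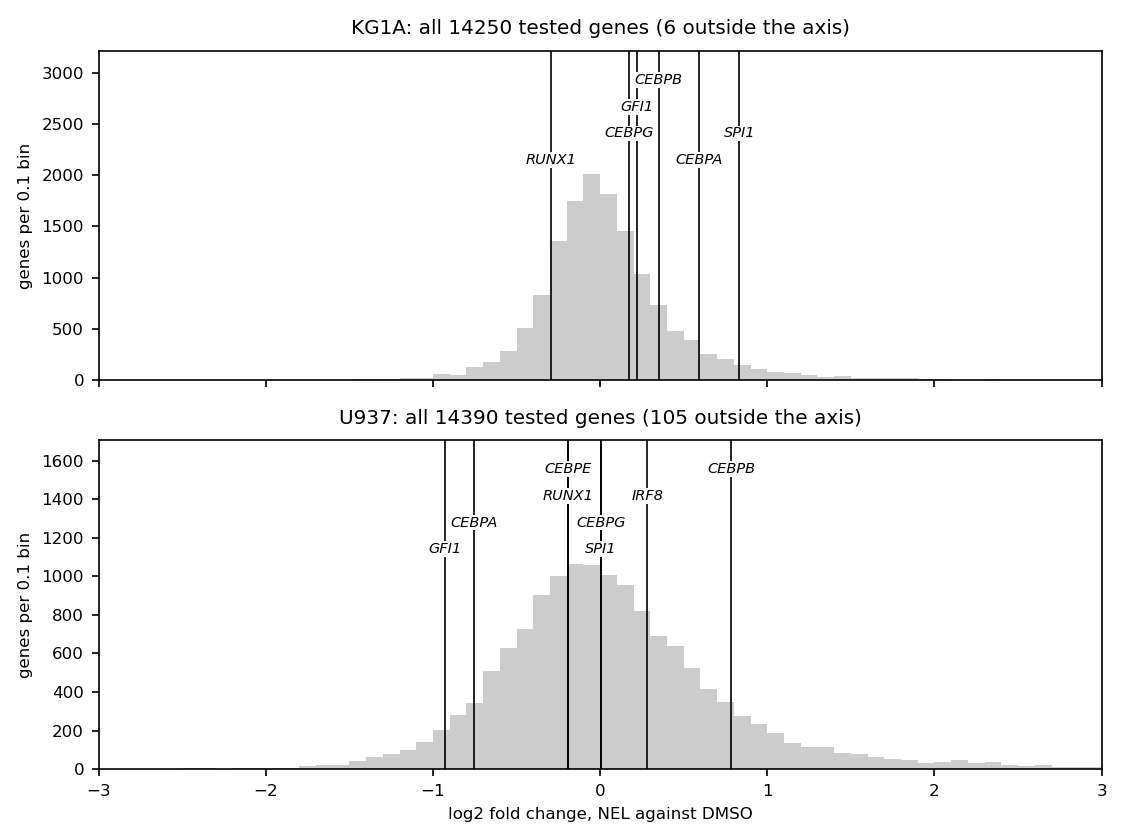
Number of genes (y axis, bins of 0.1) by log2 fold change of NEL against DMSO (x axis, ends at -3 and 3) in KG1A, 14250 genes, and U937, 14390 genes, with vertical lines at the factors tested. The distribution is wider in U937; SPI1 at 0.83 and CEBPA at 0.59 lie in the upper tail of KG1A, and GFI1 at -0.93, CEBPA at -0.76 and CEBPB at 0.78 lie in the flanks of U937.

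The opposite moves of CEBPA and CEBPB changed the make-up of the C/EBP family in U937. CEBPA held 60.8 ± 0.745% of the summed RPKM of the 5 C/EBP genes with DMSO and 40.5 ± 0.973% with NEL, while CEBPB went from 20.03 ± 1.21% to 38.8 ± 1.30%. The sum itself, 258 ± 15.7 RPKM with DMSO and 244 ± 11.7 with NEL, overlapped between groups. The ratio of CEBPA to CEBPB was 2.90, 3.23, 2.90 and 3.13 in the DMSO libraries and 1.04, 1.10, 1.02 and 1.01 in the NEL libraries. In KG1A the shares moved less: CEBPA went from 16.1 ± 0.280% to 19.3 ± 1.16%, CEBPB from 43.0 ± 2.09% to 43.8 ± 2.28% and CEBPG from 40.8 ± 1.98% to 36.7 ± 3.05%, while the sum was 48.0 ± 1.68 RPKM with DMSO and 63.0 ± 1.52 with NEL, with no overlap. The ratio of IRF8 to GFI1, factors that favour monocytes and granulocytes, was 0.379 ± 0.0162 in U937 with DMSO and 0.877 ± 0.0299 with NEL, and that of SPI1 to GFI1 0.532 ± 0.0654 and 1.02 ± 0.113. These ratios were chosen after their values were seen and are given with no test.

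**Figure D4:**
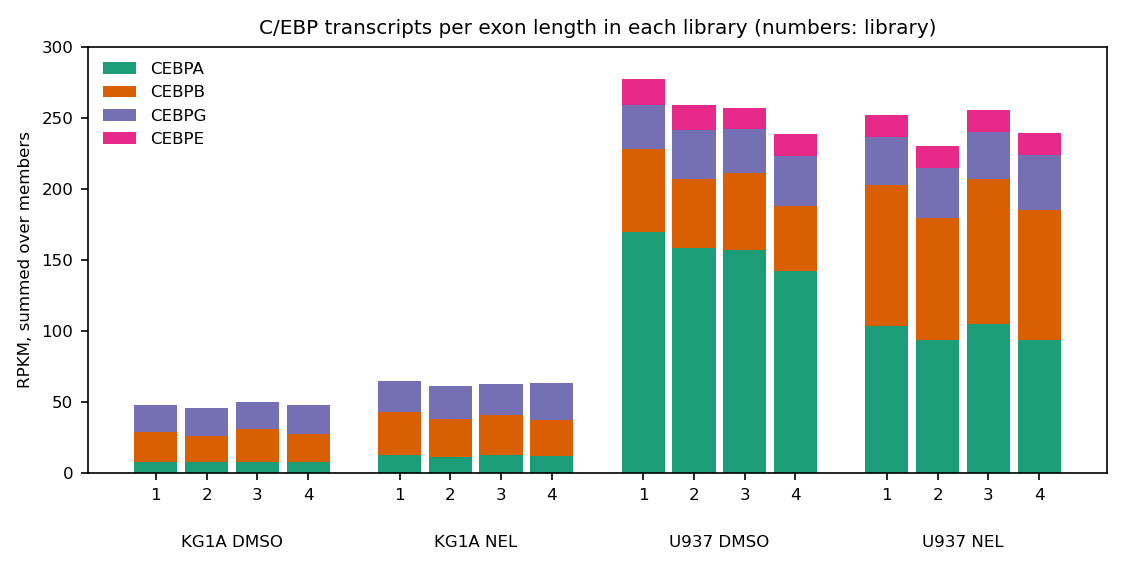
RPKM of CEBPA, CEBPB, CEBPG and CEBPE stacked (y axis, from 0) in each of the 16 libraries (x axis, numbered within each group). U937 bars stand between 230 and 278 RPKM in both groups, with CEBPA the larger part under DMSO and CEBPA and CEBPB near equal under NEL; KG1A bars hold no CEBPE.

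A limit of counting touches CEBPA. On the opposite strand, inside its hg19 span, lie 2 unnamed loci, ENSG00000267580 (chr19:33790840-33792074) and ENSG00000267727 (chr19:33792185-33792846), and their summed count was 41.7% to 56.0% of that of CEBPA across the 16 libraries. The libraries were stranded, but whether counting used strand is not given in the sources used here, so reads of CEBPA and of these loci cannot be told apart. The group means of that share were 45.5% (DMSO) and 49.7% (NEL) in KG1A, and 49.4% and 49.9% in U937, so the loci moved in the direction of CEBPA in both lines. RUNX1 overlaps 3 loci with at most 0.75 counts in a group mean.

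Genes tied to the factors by known function were examined as lists, chosen with earlier results of these data known. Their counts stand against 23.6% higher and 23.6% lower among all genes in KG1A, and 34.6% higher and 34.7% lower in U937, and no count is read as particular to a list. A gene named in 1 line may have changed in the other as well. Among partners and coregulators, 14 of 15 were tested in each line (RUNX1T1 was at 0): in KG1A 5 rose and 7 fell (median log2 fold change -0.10), and in U937 3 rose and 9 fell (median -0.28, against -0.004 over all genes). CBFB, the partner of RUNX1, rose in both lines, from 115 ± 2.88 to 128 ± 3.00 CPM in KG1A (0.15 ± 0.04, adjusted p = 0.00463) and from 127 ± 3.59 to 143 ± 1.84 in U937 (0.17 ± 0.04, adjusted p = 0.00104), a gene named after its values were seen. TRIB1 and TRIB2, pseudokinases that promote breakdown of C/EBPα protein, moved oppositely in KG1A and both fell in U937. TRIB2 rose in KG1A from 17.0 ± 0.701 to 24.1 ± 2.76 CPM (0.49 ± 0.08, adjusted p = 2.45e-04), where TRIB1 fell with overlapping groups (-0.37 ± 0.12, adjusted p = 0.0161). In U937 TRIB1 fell from 10.7 ± 0.781 to 7.0 ± 0.878 CPM (-0.61 ± 0.11, adjusted p = 2.09e-04), and TRIB2 fell with overlapping groups (-0.25 ± 0.10, adjusted p = 0.0374). Of bZIP genes that can pair with C/EBP proteins, ATF4 fell in KG1A from 414 ± 27.9 to 285 ± 18.4 CPM (-0.54 ± 0.05, adjusted p = 1.59e-06) and also in U937 (-0.40 ± 0.06, adjusted p = 2.93e-05). DDIT3 rose in U937 from 13.5 ± 1.89 to 25.4 ± 3.94 CPM (0.92 ± 0.12, adjusted p = 1.04e-05) and also in KG1A, there with overlapping groups (0.49 ± 0.16, adjusted p = 0.0227). JUN, named after its values were seen, fell in U937 from 53.8 ± 1.19 to 41.4 ± 1.56 CPM (-0.37 ± 0.05, adjusted p = 1.10e-05). In KG1A it was at 1.02 ± 0.369 CPM with DMSO and 3.78 ± 0.428 with NEL, on 6 to 16 and 37 to 48 counts a library. There it passed the filter only through NEL, which favoured a rise, so it is described by its counts and not by its test. It is among the 5 rises counted in KG1A.

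Relatives of the factors in the ETS, IRF, RUNX and GFI families (20 listed) showed 4 rises and 6 falls among 17 tested in KG1A (median -0.07), and 8 rises and 3 falls among 15 tested in U937 (median 0.16), shares called near the 47.2% and 69.3% of all genes. In KG1A the ETS factor ELF4 rose by 0.30 ± 0.06 (adjusted p = 6.56e-04), and GABPA fell by 0.45 ± 0.05 (log2 -0.45, adjusted p = 6.49e-06). In U937 the interferon factor IRF7 rose from 5.22 ± 1.13 to 11.1 ± 0.843 CPM (1.08 ± 0.13, adjusted p = 6.28e-06), and the ETS factor FLI1 fell from 287 ± 7.40 to 218 ± 7.86 (-0.39 ± 0.04, adjusted p = 1.04e-06). Of 12 monocyte and macrophage factors, 7 were tested in KG1A and 3 rose (median -0.03), among them ID2 (0.31 ± 0.06, adjusted p = 6.80e-04). In U937 10 were tested, 5 rose and 2 fell (median 0.20): the repressor BCL6 went from 9.42 ± 1.01 to 15.6 ± 0.448 CPM (0.73 ± 0.09, adjusted p = 6.34e-06), and VDR, the vitamin D receptor, fell slightly (-0.16 ± 0.05, adjusted p = 0.0149), a call lost without U937 NEL library 2 (-0.13, adjusted p = 0.0535) and in libraries 1 and 3 alone (-0.15, adjusted p = 0.0679).

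Of 12 stem and progenitor factors, 9 were tested in KG1A, where 6 fell and 1 rose (median -0.29). GATA2, a factor of blood stem cells, fell from 162 ± 9.95 to 121 ± 8.57 CPM (-0.43 ± 0.05, adjusted p = 1.85e-05), and HHEX rose slightly (0.13 ± 0.04, adjusted p = 0.0153), a call lost without KG1A DMSO library 1 (0.10, adjusted p = 0.0565). Among the 8 tested in U937, 3 fell and 1 rose (median -0.07). There LYL1, a relative of TAL1, fell from 223 ± 6.74 to 108 ± 2.54 CPM (-1.04 ± 0.04, adjusted p = 6.99e-11), and IKZF1, the gene of Ikaros, rose by 0.26 ± 0.04 (adjusted p = 1.82e-05).

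Known targets of PU.1 and C/EBP proteins among surface receptors and oxidase subunits (20 listed) had more rises than falls among those tested. In KG1A 8 were tested, 5 rose and 1 fell (median 0.25; all genes 23.6% higher and 23.6% lower), and in U937 17 were tested, 12 rose and 3 fell (median 0.46; all genes 34.6% and 34.7%, median -0.004). In KG1A ITGAM, the CD11b subunit of a myeloid integrin, rose from 2.23 ± 0.509 to 11.2 ± 0.943 CPM (2.32 ± 0.15, adjusted p = 2.53e-08), as it did in U937 (2.61 ± 0.07, adjusted p = 5.01e-12), and the scavenger receptor MSR1 fell (-0.40 ± 0.07, adjusted p = 2.63e-04). In U937 CSF1R, the receptor of the macrophage growth factor, rose from 2.69 ± 0.394 to 19.3 ± 0.732 CPM (2.84 ± 0.11, adjusted p = 5.57e-11), while TLR4 fell from 52.9 ± 2.92 to 40.3 ± 2.11 (-0.39 ± 0.06, adjusted p = 3.37e-05). The SPI1 transcript, in the same U937 libraries, overlapped between the groups.

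Granule and calgranulin genes (15 listed) were nearly silent in KG1A, where CTSG alone passed the filter, with 10 to 16 counts a library under DMSO and 28 to 35 under NEL (1.21 ± 0.20, adjusted p = 1.81e-04). In U937 10 were tested, 6 rose and 3 fell (median 0.78). BPI, a bactericidal granule protein, went from 1.31 ± 0.540 to 17.0 ± 0.757 CPM. Its libraries held 9 to 20 counts with DMSO and 191 to 213 with NEL, so it passed the filter only through NEL. The same held for CAMP (7 to 18 and 59 to 77 counts) and MMP9 (6 to 23 and 64 to 86). CAMP and MMP9 were named after their values were seen. The filter favoured a rise in these genes, so BPI is described by its counts and not by its test. Nothing is read from the 6 rises or the median. The 3 that fell were the serine proteases of primary granules PRTN3, from 1004 ± 40.2 to 394 ± 16.2 CPM (-1.35 ± 0.04, adjusted p = 1.86e-11), ELANE, from 413 ± 29.7 to 212 ± 6.79 (-0.95 ± 0.05, adjusted p = 1.69e-09), and CTSG, from 1255 ± 21.9 to 944 ± 32.8 (-0.41 ± 0.04, adjusted p = 5.11e-07), the last named after its values were seen. AZU1, a granule protein encoded beside PRTN3 and ELANE, rose from 250 ± 14.3 to 409 ± 13.4 CPM (0.72 ± 0.05, adjusted p = 1.03e-08). The summed CPM of the 15 genes went from 2871 to 3009 with DMSO to 2023 to 2084 with NEL.

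Of 6 known IRF8 targets, all were tested in U937, where 4 rose and 1 fell (median 0.27). CYBB, the oxidase subunit gp91phox, rose from 4.00 ± 0.536 to 17.5 ± 0.434 CPM (2.13 ± 0.10, adjusted p = 4.66e-10), and CST3, the gene of cystatin C, fell from 85.01 ± 3.18 to 63.7 ± 2.54 (-0.41 ± 0.05, adjusted p = 3.02e-06). In KG1A, where IRF8 was near 0, CYBB, CTSC and PML were tested and differed by -0.04, -0.08 and 0.09 (adjusted p = 0.853, 0.0898 and 0.0828). Without NEL these 3 were lower in U937 than in KG1A, CTSC by log2 -1.91 ± 0.04, PML by -1.17 ± 0.05 and CYBB by -0.35 ± 0.14, with overlapping groups for CYBB. The other 3 targets were higher in U937 and under 1 CPM in KG1A. A link between IRF8 and these genes was not tested. Of 9 genes that GFI1 is known to repress, 7 were tested in each line. In U937, where GFI1 fell, 3 rose and 3 fell (median -0.07): CDKN1A, the cell cycle inhibitor p21, rose from 7.34 ± 0.430 to 37.0 ± 5.75 CPM (2.34 ± 0.12, adjusted p = 7.46e-10), and ID1 fell from 6.36 ± 0.551 to 1.91 ± 0.297 (-1.73 ± 0.15, adjusted p = 1.89e-07). In KG1A, where GFI1 rose, 5 rose and 1 fell (median 0.31). There CDKN1A rose as well (1.61 ± 0.16, adjusted p = 1.67e-06), and HOXA9, a homeobox factor of progenitors, fell from 257 ± 3.83 to 196 ± 5.12 CPM (-0.40 ± 0.03, adjusted p = 4.73e-07). CSF1, named after its values were seen, is among the 5 rises. It passed the filter only through NEL, with 5 to 12 counts a KG1A library under DMSO and 15 to 22 under NEL. A link between GFI1 and the listed genes was not tested. Several genes, CYBB, KLF4, EGR1, EGR2, ID2, HOXA9, MEIS1 and ERG among them, stand in more than 1 list, so the lists are not independent.

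**Figure D5:**
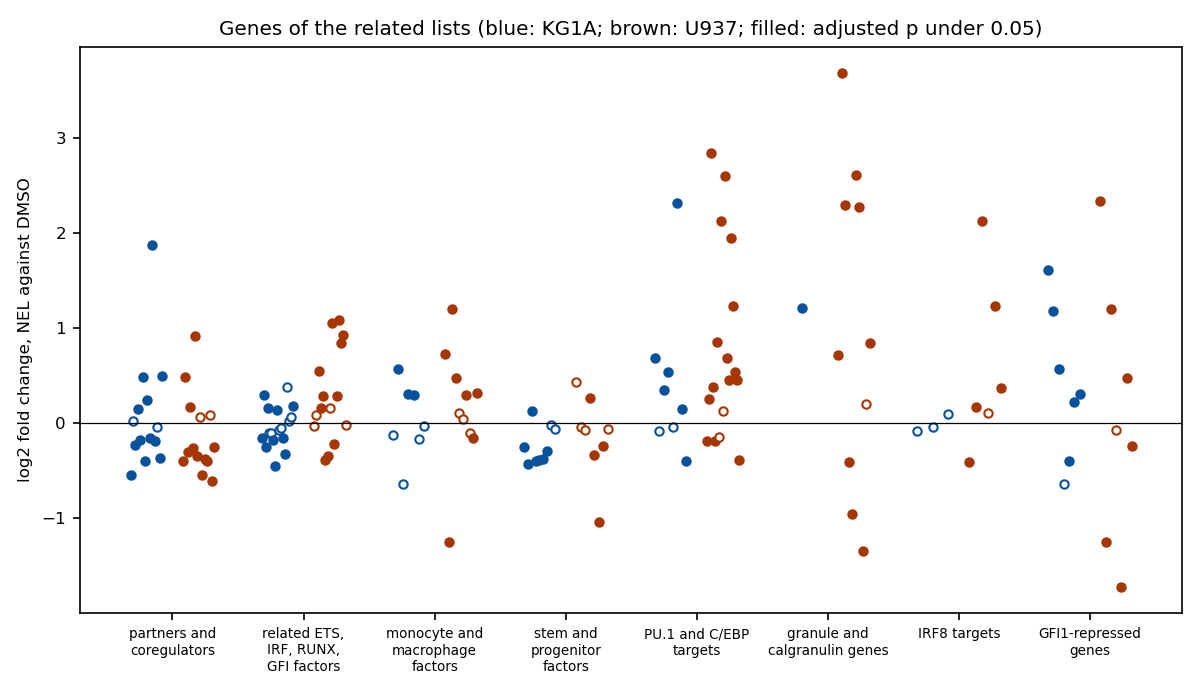
Log2 fold change of NEL against DMSO (y axis) for each tested gene of 8 lists (x axis) in KG1A (blue, left of each label) and U937 (brown, right); filled circles have an adjusted p under 0.05. Most PU.1 and C/EBP targets lie above 0 in U937, granule genes lie on both sides, and most stem and progenitor factors lie below 0 in KG1A.

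Markers of other lineages moved with NEL too, and their part in the results was not tested. The 8 B lymphoid markers summed to 49.0 to 55.6 CPM in U937 with DMSO and 89.5 to 96.6 with NEL, with 5 of 6 tested genes higher (median 1.37), CD79A among them (2.09 ± 0.23, adjusted p = 2.08e-06), and MS4A1 at 0 with DMSO. In KG1A the same list summed to 6.39 to 7.80 and 9.29 to 12.7 CPM, and PAX5 rose (0.70 ± 0.12, adjusted p = 2.84e-04) among 2 tested, 1 higher and 1 lower. The T lymphoid list had 7 of 8 genes in the table and summed to 145 to 164 CPM in KG1A and under 1 in U937; 4 were tested in KG1A and 3 rose, CD28 among them (1.45 ± 0.18, adjusted p = 1.74e-05). The erythroid and megakaryocyte list went from 494 to 510 CPM to 578 to 609 in KG1A, with 1 of 2 tested genes higher, ITGA2B (0.23 ± 0.03, adjusted p = 6.92e-05), and from 16.8 to 19.1 to 11.8 to 13.3 in U937, with both tested genes lower, EPOR among them (-0.31 ± 0.09, adjusted p = 0.00711; in libraries 2 and 4 alone -0.23, which did not pass, adjusted p = 0.126). HBA1, HBB and PF4 were at 0 in all groups. Of the immature line markers 4 were tested in KG1A and 2 rose (median 0.33), and of the promonocytic markers 7 were tested in U937, 4 rose and 2 fell (median 0.26), while in KG1A the 1 tested rose.

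The genes whose pattern over the 16 libraries was most like each factor's were found among 10539 named genes, by the root mean square difference of log2(CPM + 0.5) centred on each gene's mean. RUNX1 had the closest, CDK6, a cell cycle kinase, at 0.0577, with 1154 ± 4.33 and 889 ± 23.6 CPM in KG1A and 297 ± 6.67 and 270 ± 10.3 in U937 (DMSO and NEL), followed by NCOA2, a nuclear receptor coactivator, at 0.0717. CEBPG was matched by SRSF4 (0.0678) and ZDHHC7 (0.0685), and CEBPE by PITX1 (0.0753) and LDLRAD3 (0.114). For CEBPB they were ERRFI1, a feedback inhibitor of ERBB receptors, at 0.127, and PCYOX1L at 0.141. GFI1 was matched by POP7 (0.137) and CD320 (0.156), and CEBPA by NCR3LG1 (0.144) and PLEK, the gene of pleckstrin (0.220). PLEK, at 57.5 ± 5.83 and 83.1 ± 5.06 CPM in KG1A and 1157 ± 41.5 and 883 ± 36.2 in U937, rose and fell with CEBPA in its means. The nearest to IRF8 were CD4 (0.207) and AZU1 (0.261), and to SPI1 PTMS (0.234) and MAMLD1 (0.246), the least close of the first matches. The measure takes in the gap between the lines, so a close match need not follow the response to NEL.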

How the data were processed

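RNA was counted in 16 libraries. Per the labels' protocols, extraction used Trizol and a column, and a stranded Kapa kit selected polyadenylated RNA. The submitters' processing notes list bcl2fastq 2.18.0.12 with TopHat2 and HTSeq 0.11.2, and hg19 (GRCh37) as the build. Which annotation and strand setting were used is not given in the sources used here. Raw counts per gene are the values the authors deposited. Their deposited RPKM is a count divided by exon length and library total (to within a relative 1.86e-07), so it adds no evidence of its own; it served for levels between genes and for alternatives. A symbol was found for 32562 of 34618 gene IDs, and IDs without one took 0.878% of counts.

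The main test was edgeR 4.0.16 in R 4.3.3 (quasi-likelihood, TMM factors, minimum count 10, minimum total 15), with Benjamini-Hochberg adjustment over all genes tested and calls at an adjusted p under 0.05. NEL and DMSO were compared within each line's 8 libraries, effects between lines as an interaction over 16, and lines over DMSO libraries. The SE is the size of the log2 fold change over the square root of F. CPM uses the factors of the 16-library fit. The scripts were tested on simulated data. Figures used Python 3.11.15 and matplotlib 3.10.9.

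The members, the gene lists and the split into odd- and even-numbered libraries were chosen with earlier results of these data known. Beside the members, the rule named in each list and line the called gene with the largest change each way at 5 CPM or more in the higher group, and the 2 genes most like each member; other genes named are said to have been named after their values were seen, or are given as all of a small count. Same-numbered libraries deviated together from their group means in every pair (correlations 0.286 to 0.370 in KG1A, 0.317 to 0.364 in U937, 0.278 to 0.323 between lines under DMSO), and so did libraries of different number within the same odd or even set (0.265 to 0.401). A library correlated best with its own number in 2 of 4 cases in KG1A, 1 of 4 in U937 and 3 of 4 between lines, so the shared deviation follows the sets and does not single out the number. The main design has no block, and the block was run as an alternative. Promoter windows are RefSeq's on GRCh38.p14, and no coordinate was converted between builds. Single values of some list genes are not reported here. Alternatives were DESeq2 size factors, upper quartile factors, no filter or 1 CPM in 4 libraries, DESeq2 1.42.0, limma-voom and limma-trend (limma 3.58.1) on log2(RPKM + 0.5) and log2(RPKM + 0.1), a 0.01 threshold, each library left out, the block, a covariate for the library sets, each set alone, summed libraries and 1 model of all libraries. The summed libraries were 1 with 2, and 3 with 4, of a group, so each sum mixes the odd and even sets.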

Additional observations from a re-analysis of the deposited data

Results flagged for a closer look

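The RUNX1 CPM in U937 with NEL held a library apart from the others: library 2 was at 75.1 and the other 3 at 79.3 to 79.8, a gap of 0.907 of the range, above Dixon's 95% critical value for 4 samples. Among 28 groups examined, chance gives about 1 in 20 such gaps. The NEL effects differed between the lines, by the interaction test of edgeR, for SPI1 (-0.84), GFI1 (-1.16), CEBPB (0.42) and CEBPA (-1.36), on the log2 scale as U937 minus KG1A. GFI1 and CEBPA rose in KG1A and fell in U937, each with no overlap between DMSO and NEL libraries in either line.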

How the results depend on the processing

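Of 30 results for single factors, 20 kept their direction and their side of the threshold under every alternative run. The 20 include the line comparisons of IRF8 and CEBPE, whose direction the filter fixed, and the CEBPE difference, which has no meaning. Nothing is read from the stability of those results. The replicate block changed no call other than that of the CEBPG difference given in the report; it gave adjusted p = 0.000996 there. The falls called among the factors in U937 numbered 2 in place of 4 with limma-trend on log2(RPKM + 0.5) and on log2(RPKM + 0.1), where CEBPE (-0.10 and -0.10) and RUNX1 (-0.10 and -0.10) did not pass (adjusted p = 0.151 and 0.102 with the first, 0.151 and 0.0997 with the second). Differences of effect called higher numbered 2 in place of 1 with DESeq2 size factors (RUNX1 0.18, adjusted p = 0.0186), upper quartile factors (0.16, adjusted p = 0.0351) and the DESeq2 test (0.18, adjusted p = 0.0204), and 2 with both limma-trend settings, through IRF8, which is near 0 in KG1A. With limma-voom the SPI1 difference was -0.75 and did not pass (adjusted p = 0.0892), and with upper quartile factors the CEBPE fall in U937 was -0.14 and did not pass (adjusted p = 0.0949). Leaving out each library in turn gave 3 to 4 falls in U937 and 2 to 4 lower differences, with 5 rises and 1 fall in KG1A, 2 rises in U937, 1 higher difference, and 7 higher and 1 lower between lines each time. Over all genes the same gave 3120 to 3230 higher and 3036 to 3180 lower in KG1A, 4812 to 4922 and 4807 to 4949 in U937, 3254 to 3330 and 4100 to 4180 for the difference, and 6479 to 6556 and 6553 to 6678 between lines. The 7 factors higher between lines include IRF8 and CEBPE, whose direction the filter fixed. Among all genes tested between lines 43% were higher in U937, and nothing is read from the count of 7. The signs of SPI1 and CEBPG in U937, near 0 and never called, turned: SPI1 to -0.016 with no filter, -0.017 in odd-numbered libraries and -0.0061 with summed libraries, and CEBPG to -0.013 with no filter, -0.0047 in even-numbered libraries and -0.0020 with summed libraries. Leaving out each U937 library in turn gave -0.068 to 0.052 for SPI1 and -0.037 to 0.042 for CEBPG. The cause of these changes was not tested. Depth limits CEBPD in both lines and IRF8 and CEBPE in KG1A, at 0 to 6 counts a library.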
